A study of Rattus norvegicus with 9 samples.

Results

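The genes described here are 9 feedback regulators of mitogen-activated protein kinases, mainly of the ERK cascade. They are the dual-specificity phosphatase genes Dusp1, Dusp4, Dusp5, Dusp6 and Dusp8, the Sprouty genes Spry1, Spry2 and Spry4, and the Sprouty-related gene Spred1. They were taken by symbol from a read count table of 17327 rows, where all 9 had a row, and all 9 passed the filter on low counts that left 11873 genes for testing. The table came from RNA sequencing of primary cardiomyocytes labelled NRVMs, the usual abbreviation of neonatal rat ventricular myocytes, a culture widely used as a model of hypertrophic growth. Of the 9 libraries, 3 were from cells given 50 µM of the alpha-adrenergic agonist phenylephrine, 3 from cells given 10 nM of the growth factor IGF1 and 3 from cells given vehicle, each for 48 hours. Strain, genotype, litter and medium are not stated in the labels, nor whether the 3 libraries of a group came from separate cultures, so p-values here reflect only how these libraries spread, which may be technical. Transcript lengths were not used, so levels are compared between libraries and not between genes.

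Receptors for growth factors and Gq-coupled receptors both activate Ras, which passes the signal through the kinases Raf and MEK to ERK. ERK enters the nucleus and switches on early response genes, among them genes whose products shut the cascade down again. The dual-specificity phosphatases remove phosphate from ERK or from its stress-activated relatives JNK and p38, whereas Sprouty and Spred proteins act upstream, at the steps around Ras and Raf. In cardiac muscle the cascade is known for its part in growth of the myocytes. The level of some of these feedback transcripts, such as Dusp6, is often read as a trace of recent ERK activity.

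Total counts were 31274396 to 33607863 with phenylephrine, 31987197 to 46221459 with IGF1 and 38659775 to 48505265 with vehicle. Levels are given as CPM, the usual depth-scaled read count, here with library totals scaled by TMM (trimmed mean of M-values), and 1 CPM rested on 29.1 to 51.6 reads. The 9 genes were covered by 343 to 4051 reads per library. IGF1 replicate 1 stood apart: it differed over 1.5-fold from IGF1 replicates 2 and 3 in 255 and 213 genes, where other pairs within a group differed so in 2 to 29. Results that rest on it are therefore given with and without it.

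Phenylephrine raised most of these genes and IGF1 lowered most of them. The 9 genes, and the gene lists further below, were chosen with earlier results of these data known. The shares of all genes set beside their counts therefore describe and do not test. With phenylephrine, 7 of 9 were higher than with vehicle, namely Dusp1, Dusp4, Dusp6, Dusp8, Spry1, Spry2 and Spry4, and Spred1 was lower (edgeR quasi-likelihood test, Benjamini-Hochberg adjusted p under 0.05 over all genes tested). Of all genes tested, 27.9% were called higher and 28.9% lower in that comparison. With IGF1, 8 of 9 were lower than with vehicle and 0 were higher, against 23.4% of all genes called lower and 24.7% called higher. The count of 0 was also 0 at an unadjusted p under 0.05 and with limma-voom, and was 1 (Dusp8) with DESeq2. Of all genes, 3019 were higher with limma-voom and 3034 with DESeq2. Phenylephrine set directly against IGF1 gave 9 of 9 higher and 0 lower, against 27.1% of all genes in each direction. That 0 was the same at an unadjusted p under 0.05, with DESeq2 and with limma-voom. Of all genes, 3200 were lower with DESeq2 and 3151 with limma-voom.

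The median log2 fold change of the 9 genes was 0.56 with phenylephrine against vehicle, where the median of all genes was -0.03. It was -0.57 with IGF1 against vehicle (all genes, -0.0018) and 0.89 for phenylephrine against IGF1 (all genes, -0.0025). Both comparisons with vehicle share the vehicle libraries. The ranges of the 2 groups were apart, in either direction, in 66.6% of all genes with phenylephrine against vehicle. With IGF1 against vehicle they were apart in 56.5% of all genes. The split of calls over all genes depended on scaling. When only library size was used, 1751 genes were higher and 5696 lower with phenylephrine against vehicle, which put 23.5% of the calls on the higher side, compared with 49.1%. With IGF1 against vehicle that share was 36.0%, compared with 51.3%, and with phenylephrine against IGF1 it was 32.8%, compared with 49.9%. The median of all genes then moved to -0.22, -0.08 and -0.11, and no member changed direction. Relative to those medians, the members' log2 fold changes differed by at most 0.02 between the scalings.

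**Figure D1:**
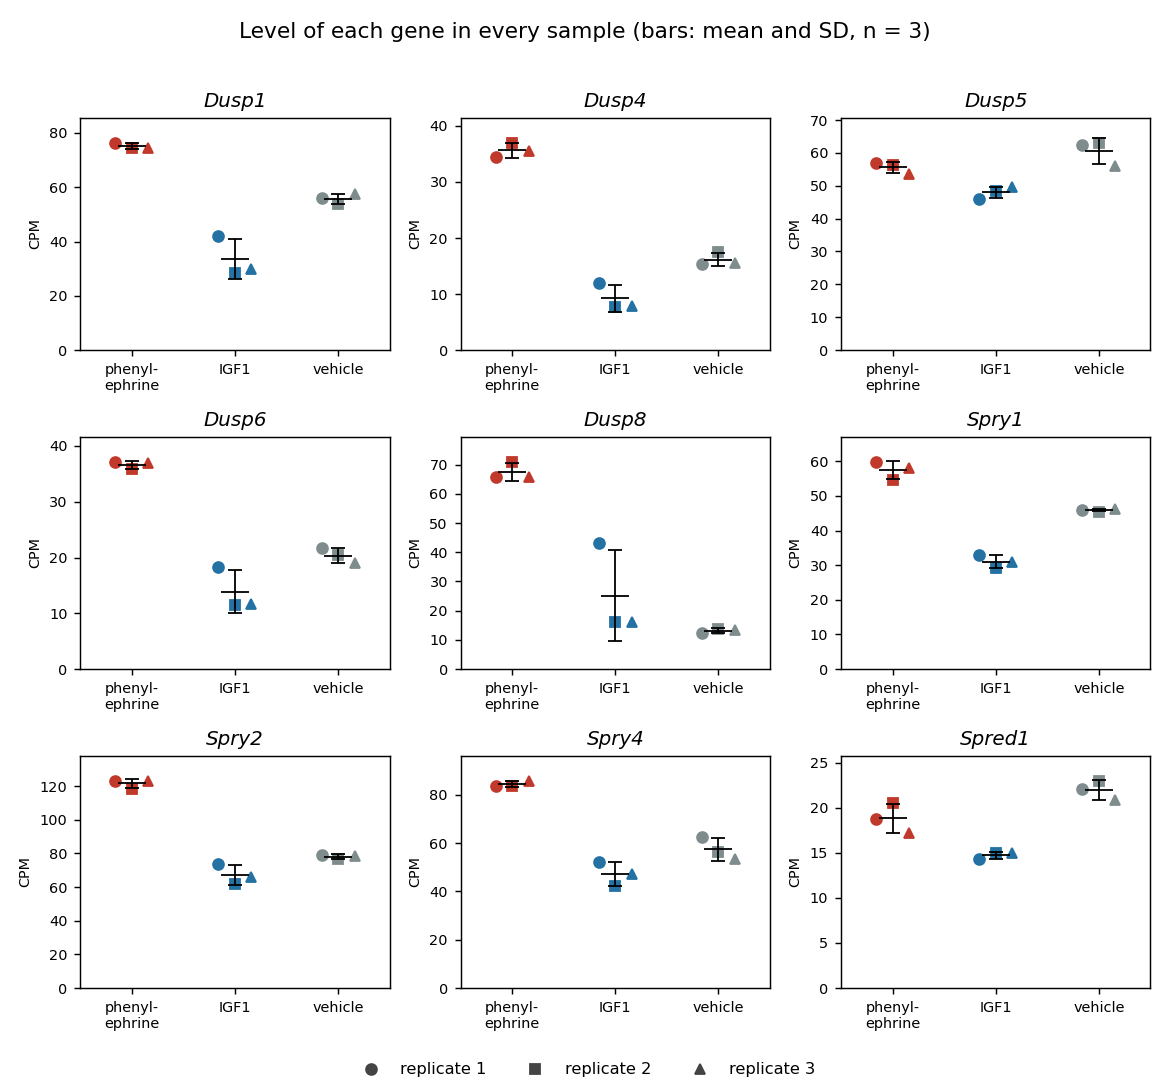
CPM (y axis, from 0) of each of the 9 genes in every library, by treatment, with the mean and SD of the 3 libraries of a group. In 6 panels the order is phenylephrine, vehicle, IGF1 from high to low, in Dusp5 and Spred1 vehicle is highest, and in Dusp8 vehicle is lowest, with IGF1 replicate 1 at 43.2 CPM far above the other IGF1 libraries.

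Dusp1 encodes a nuclear phosphatase of p38, JNK and ERK that is switched on within minutes by many stimuli. It stood at 76.5, 74.6 and 74.6 CPM with phenylephrine, at 41.9, 28.4 and 30.0 CPM with IGF1, and at 56.0, 53.8 and 57.4 CPM with vehicle. The ranges of the 3 groups did not overlap, and phenylephrine was highest. The log2 fold change was 0.43 with phenylephrine (SE 0.12, edgeR adjusted p = 0.015) and -0.75 with IGF1 (SE 0.12, adjusted p = 0.0012), a level 1.35-fold higher and 1.68-fold lower than with vehicle. The phenylephrine call ended without vehicle replicate 2 (log2 0.40, adjusted p = 0.055), within a range of adjusted p from 1.8e-12 to 0.055 over the alternatives. The fit shares its estimate of each gene's spread across all libraries, so IGF1 replicate 1 also enters the SE and p-value of this comparison. Without that library the log2 fold change was again 0.43 (SE 0.04, edgeR adjusted p = 1.8e-12).

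Dusp4 encodes a nuclear phosphatase related to that of Dusp1, which acts on ERK and JNK. It stood at 34.4, 37.0 and 35.5 CPM with phenylephrine, at 12.05, 7.75 and 7.88 CPM with IGF1, and at 15.4, 17.6 and 15.5 CPM with vehicle. Every phenylephrine library lay above, and every IGF1 library below, the vehicle range. Its level was 2.21-fold higher with phenylephrine (log2 1.14, SE 0.13, edgeR adjusted p = 1.8e-05) and 1.77-fold lower with IGF1 (log2 -0.83, SE 0.14, adjusted p = 4.9e-04).

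Dusp6 encodes the cytoplasmic phosphatase that is selective for ERK and is a standard readout of the cascade. It stood at 37.2, 35.8 and 36.9 CPM with phenylephrine, at 18.3, 11.6 and 11.7 CPM with IGF1, and at 21.7, 20.4 and 18.9 CPM with vehicle. The groups again did not overlap, though IGF1 replicate 1 came within 1 CPM of the lowest vehicle library. Dusp6 was 1.80-fold higher with phenylephrine (log2 0.85, SE 0.15, edgeR adjusted p = 8.5e-04) and 1.49-fold lower with IGF1 (log2 -0.57, SE 0.15, adjusted p = 0.012).

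Dusp5 encodes a nuclear phosphatase that is selective for ERK, and over the 9 libraries its level spanned the least of the 9 genes, 0.45 on the log2 scale. It stood at 56.8, 56.4 and 53.6 CPM with phenylephrine, at 46.1, 48.3 and 49.6 CPM with IGF1, and at 62.5, 63.1 and 55.9 CPM with vehicle. The phenylephrine and vehicle ranges overlapped, and every IGF1 library lay below both. With IGF1 it was 1.26-fold lower (log2 -0.33, SE 0.05, edgeR adjusted p = 1.3e-04). The difference between phenylephrine and vehicle was -0.12 on the log2 scale (SE 0.05, adjusted p = 0.068) and missed the threshold. It passed as lower in 7 of 17 alternatives, among them without IGF1 replicate 1 (log2 -0.12, adjusted p = 0.018) and without vehicle replicate 3 (log2 -0.19, adjusted p = 0.0092). It passed barely without IGF1 replicate 2 or 3 (0.0495 and 0.0497).

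Dusp8 encodes a phosphatase known for acting on JNK and p38, and it showed the largest change against vehicle among the 9 genes. It stood at 65.7, 71.1 and 66.0 CPM with phenylephrine, at 43.2, 16.2 and 15.97 CPM with IGF1, and at 12.2, 13.7 and 13.5 CPM with vehicle. The phenylephrine libraries lay far above the others, and in the IGF1 group replicate 1 lay far above replicates 2 and 3. Dusp8 was 5.15-fold higher with phenylephrine (log2 2.37, SE 0.41, edgeR adjusted p = 0.0027). All IGF1 libraries were above all vehicle libraries, but the difference of log2 0.90 (SE 0.41, adjusted p = 0.12) missed the threshold. Without IGF1 replicate 1 the IGF1 difference was log2 0.30 (SE 0.07) with an adjusted p of 2.6e-04, and the phenylephrine SE was 0.06.

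The promoter sequences of 8 of the 9 genes, 250 bases before to 50 after each start, were read from RefSeq (build GRCr8), which has 2 for Spry2. Dusp4 was not matched. Those of Dusp1, Dusp5 and Dusp8 are shown because they are the phosphatase genes that hold a full response element (Dusp1 and Dusp5) or changed most (Dusp8). They lie at chr10:17184603-17184902 on the plus strand, chr1:262543524-262543823 on the plus strand and chr1:206612392-206612691 on the minus strand, and are written 5′ to 3′ along the gene. Capitals mark the cyclic AMP response element of Dusp1 and the CArG boxes of Dusp5, which are the binding motifs of the factors CREB and SRF.
Dusp1: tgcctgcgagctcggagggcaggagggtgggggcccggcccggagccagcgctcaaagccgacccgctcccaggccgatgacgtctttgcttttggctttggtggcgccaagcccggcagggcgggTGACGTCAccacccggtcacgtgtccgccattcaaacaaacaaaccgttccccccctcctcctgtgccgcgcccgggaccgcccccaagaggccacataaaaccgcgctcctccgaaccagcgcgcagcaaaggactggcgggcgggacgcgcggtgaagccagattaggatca
Dusp5: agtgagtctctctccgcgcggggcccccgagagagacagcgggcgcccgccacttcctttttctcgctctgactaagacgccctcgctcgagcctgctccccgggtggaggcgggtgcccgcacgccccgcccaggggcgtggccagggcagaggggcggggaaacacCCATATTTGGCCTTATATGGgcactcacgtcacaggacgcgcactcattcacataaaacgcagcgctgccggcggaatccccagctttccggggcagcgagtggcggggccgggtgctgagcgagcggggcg
Dusp8: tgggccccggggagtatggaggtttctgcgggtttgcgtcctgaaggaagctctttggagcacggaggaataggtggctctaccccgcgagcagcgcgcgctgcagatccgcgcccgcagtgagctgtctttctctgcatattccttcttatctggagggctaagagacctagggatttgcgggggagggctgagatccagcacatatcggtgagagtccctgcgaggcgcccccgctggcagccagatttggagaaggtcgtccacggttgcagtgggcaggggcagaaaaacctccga

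The full cyclic AMP response element TGACGTCA, which reads the same on both strands, was found in 1 of the 9 member promoters, that of Dusp1 at bases 127 to 134, and in 1.83% of all 33469 promoters. Its core TGACG, which also lies inside the full element, was found on either strand in 3 of 9 (Dusp1, Dusp5 and the first promoter of Spry2) and in 21.2% of all promoters. The CArG box was found in 1 of 9, that of Dusp5, where a pair lies side by side at bases 169 to 178 and 179 to 188, and in 1.64% of all promoters. The AP-1 site TGANTCA, the ETS site CCGGAAG and the TATA box TATAAA were found on either strand in 0 of 9, and in 7.33%, 8.75% and 14.2% of all promoters. Dusp8 held none of the 6 motifs in this window. A match describes these letters and not binding.

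All 3 Sprouty genes rose with phenylephrine and fell with IGF1. Spry1, which restrains receptor tyrosine kinase signalling to Ras, stood at 59.9, 54.7 and 58.0 CPM with phenylephrine, at 33.0, 29.3 and 30.8 CPM with IGF1, and at 46.0, 45.5 and 46.2 CPM with vehicle. Spry2, a close relative that binds the ubiquitin ligase Cbl, stood at 123, 118 and 123 CPM with phenylephrine, at 73.5, 61.7 and 66.2 CPM with IGF1, and at 79.2, 76.7 and 78.5 CPM with vehicle. Spry4, whose protein binds Raf, stood at 83.8, 83.8 and 85.8 CPM with phenylephrine, at 52.2, 42.3 and 47.2 CPM with IGF1, and at 62.7, 56.1 and 53.3 CPM with vehicle. In each of the 3 genes every phenylephrine library was above, and every IGF1 library below, all vehicle libraries, by a narrow margin for IGF1 replicate 1 in Spry2 and Spry4. Of all 11873 genes tested, 3873 had the phenylephrine range above the vehicle range, and 3291 had the IGF1 range below it.

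With phenylephrine, the log2 fold changes were 0.33 for Spry1 (SE 0.05), 0.64 for Spry2 (SE 0.05) and 0.56 for Spry4 (SE 0.07), with edgeR adjusted p of 8.3e-05, 1.9e-07 and 1.6e-05. With IGF1 they were -0.57 for Spry1 (SE 0.05), -0.22 for Spry2 (SE 0.05) and -0.28 for Spry4 (SE 0.07), with edgeR adjusted p of 6.3e-07, 0.0039 and 0.0051. Spry1 thus had the smallest rise with phenylephrine and the largest fall with IGF1 of the 3, an order that was not tested. Spry2 and Spry4 had the most similar profiles of any pair of members: after each gene was centred on its own mean, they differed by a root mean square of 0.065 on the log2 scale over the 9 libraries, against 0.143 for Spry1 and Spry4 and 0.157 for Spry1 and Spry2.

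Spred1 encodes the Sprouty-related protein that brings the Ras inactivator neurofibromin to the membrane. It stood at 18.7, 20.5 and 17.2 CPM with phenylephrine, at 14.3, 14.99 and 14.9 CPM with IGF1, and at 22.1, 23.0 and 20.8 CPM with vehicle. The libraries of both stimuli lay below all vehicle libraries, though phenylephrine replicate 2 only just did so. It was 1.49-fold lower with IGF1 (log2 -0.57, SE 0.08, edgeR adjusted p = 1.8e-05) and 1.17-fold lower with phenylephrine (log2 -0.22, SE 0.08, adjusted p = 0.019). The phenylephrine call ended without vehicle replicate 2 (log2 -0.20, adjusted p = 0.064), without phenylephrine replicate 1 (-0.22, 0.054) and without phenylephrine replicate 3 (-0.16, 0.11), and adjusted p ran from 7.8e-04 to 0.11 over all alternatives.

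**Figure D2:**
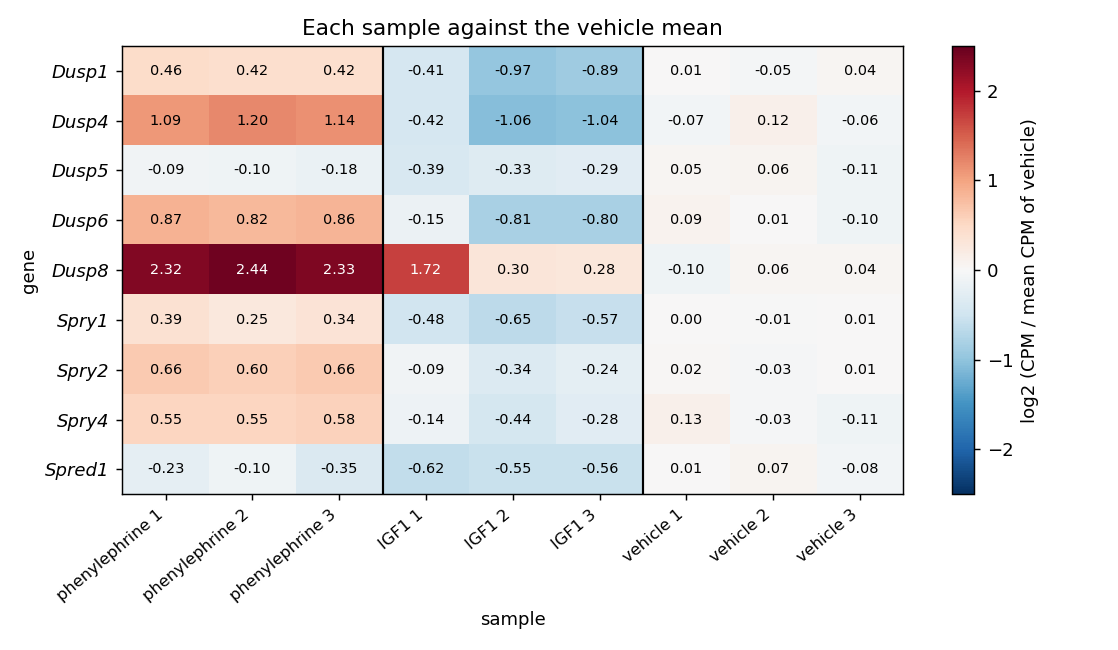
Log2 of each library's CPM over the mean CPM of vehicle, for the 9 genes (rows) and 9 libraries (columns), with red above and blue below the vehicle mean. IGF1 replicate 1 is paler than IGF1 replicates 2 and 3 in Dusp1, Dusp4 and Dusp6 (-0.15 against -0.81 and -0.80 in Dusp6) and red in Dusp8 (1.72 against 0.30 and 0.28).

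Phenylephrine against IGF1 is the direct test of whether the stimuli differed. Dusp4 differed most, at 3.92-fold higher with phenylephrine (log2 1.97, SE 0.14, edgeR adjusted p = 3.1e-07), followed by Dusp8 at 2.75-fold (log2 1.46, SE 0.39, adjusted p = 0.019), Dusp6 at 2.68-fold (log2 1.42, SE 0.15, adjusted p = 3.5e-05) and Dusp1 at 2.27-fold (log2 1.18, SE 0.13, adjusted p = 6.1e-05). The fold changes of the Sprouty genes lay close together, with Spry1 at 1.86-fold, Spry2 at 1.81-fold and Spry4 at 1.79-fold (edgeR adjusted p = 3.1e-09, 6.6e-09 and 3.5e-07). Spred1 and Dusp5 differed least, at 1.27-fold and 1.16-fold (edgeR adjusted p = 0.0014 and 0.0043). Without IGF1 replicate 1, the log2 differences were 2.19 for Dusp4, 1.66 for Dusp6 and 1.36 for Dusp1. They were then 0.94, 0.93 and 0.92 for Spry1, Spry2 and Spry4, and 0.33 and 0.18 for Spred1 and Dusp5. The phenylephrine range lay above the IGF1 range in all 9 genes. Of all 11873 genes tested, 3483 had the phenylephrine range above the IGF1 range, and 27.1% were called higher. Ranges were apart in one direction or the other in 58.8%.

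In 2 of these genes the direct call depended on the setting. That of Dusp8 ended without phenylephrine replicate 2 (log2 1.42, edgeR adjusted p = 0.055), without IGF1 replicate 2 or 3 (log2 1.22 and 1.21, 0.056 and 0.057) and when the 2 groups were fitted alone (1.45, 0.064). Without IGF1 replicate 1, Dusp8 differed by log2 2.07 (SE 0.06, adjusted p = 1.4e-28), and adjusted p ran from 1.4e-28 to 0.064 over the alternatives. The call of Dusp5 ended with scaling by library size only (log2 0.10, adjusted p = 0.23), its lone loss among 17 alternatives.

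IGF1 replicate 1 lay towards the phenylephrine level in all members but Dusp5 and Spred1, by a share that differed between genes. Of the distance between the mean of IGF1 replicates 2 and 3 and the phenylephrine mean, it covered 52.6% in Dusp8, 27.5% in Dusp1, 26.9% in Dusp6 and 15.2% in Dusp4. The shares were 10.6% in Spry1, 16.6% in Spry2 and 18.8% in Spry4, while in Dusp5 and Spred1 it lay on the far side (-42.2% and -17.8%). In Dusp1, Dusp4, Dusp6 and the Sprouty genes the vehicle mean lay between those means, so a place nearer to phenylephrine was also nearer to vehicle. For Dusp6 it stood at 18.3 CPM, with means of 11.6 CPM in IGF1 replicates 2 and 3, 20.3 CPM with vehicle and 36.6 CPM with phenylephrine. Its total count (31987197) and its TMM factor (0.95) were near those of the phenylephrine libraries (factors of 0.93 to 0.94) and not those of IGF1 replicates 2 and 3 (1.04 and 1.03). The part of these differences in the values above was not tested, and the files do not settle whether the library labelled IGF1 replicate 1 was treated as labelled, a limit on every value of the IGF1 group. Without it, the falls with IGF1 against vehicle were larger for Dusp1, Dusp4 and Dusp6, at log2 -0.93, -1.04 and -0.81 (edgeR adjusted p = 5.4e-20, 3.4e-14 and 1.2e-12), and the 8 falls all held, where 26.6% of all genes were called lower. Dusp8 was then called higher, as were 27.4% of all genes.

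**Figure D3:**
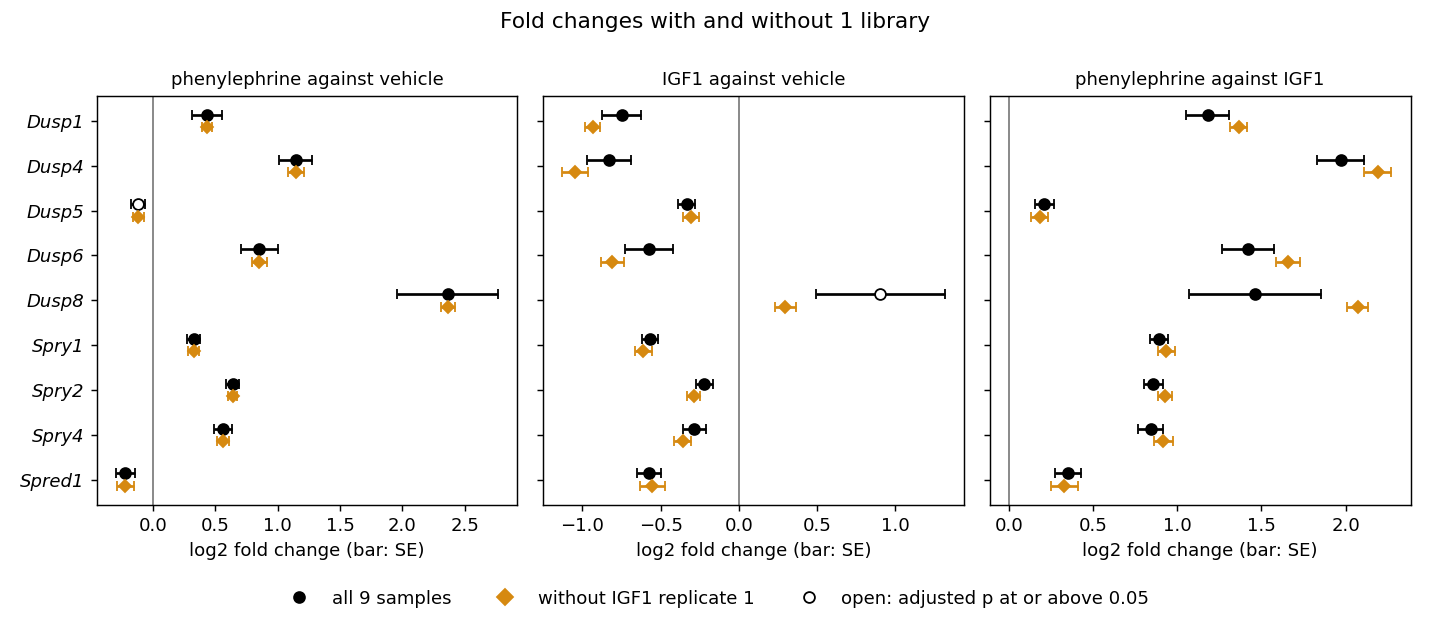
Log2 fold change and SE of the 9 genes in the 3 comparisons (x axes differ in range), with all 9 libraries (black) and without IGF1 replicate 1 (orange), and open symbols where the adjusted p was 0.05 or more. The error bars of Dusp8 shrink most without that library, and its value with IGF1 is log2 0.30 without that library and 0.90 with it.

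Markers of the labelled cell type were high in every library, and markers of other cells were detected. Summed levels of 8 cardiomyocyte markers were 27149 to 27793 CPM with phenylephrine, 28153 to 33947 CPM with IGF1 (highest in replicate 1) and 21781 to 23732 CPM with vehicle. Those of 7 smooth muscle and pericyte markers were 2706 to 2766 CPM with phenylephrine, 1626 to 2219 CPM with IGF1 (highest in replicate 1) and 1823 to 1917 CPM with vehicle. Those of 8 endothelial markers were 55.2 to 68.0 CPM with phenylephrine, 33.0 to 39.8 CPM with IGF1 (lowest in replicate 1) and 74.3 to 83.7 CPM with vehicle, with every IGF1 library below every vehicle library. The 7 fibroblast markers with a row, of 8 listed, summed to 3621 to 3690 CPM with phenylephrine, 3983 to 4540 CPM with IGF1 (lowest in replicate 1) and 3710 to 4472 CPM with vehicle. Macrophage markers (6 of 6 with a row) summed to 28.6 to 37.6 CPM with phenylephrine, 31.2 to 36.3 CPM with IGF1 (lowest in replicate 1) and 31.2 to 35.0 CPM with vehicle. Epicardial markers (3 of 4) summed to 25.3 to 26.6 CPM with phenylephrine, 22.3 to 25.4 CPM with IGF1 (lowest in replicate 1) and 28.7 to 32.3 CPM with vehicle. None of these markers with a row was at 0 in every library, while Col1a2, Emcn, Vwf, Rgs5, Cd163 and C1qa averaged under 1 CPM. The part of other cells in the 9 genes' results was not tested, and in these bulk libraries fewer cells of a type and less RNA per cell cannot be told apart.

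Calls among other feedback genes went both ways. Of 21 listed, 19 were tested; with phenylephrine against vehicle 6 were higher and 2 lower, with IGF1 against vehicle 4 were higher and 4 lower, and with phenylephrine against IGF1 7 were higher and 3 lower. The shares higher were 31.6%, 21.1% and 36.8%, against 27.9%, 24.7% and 27.1% of all genes, and the shares lower were 10.5%, 21.1% and 15.8%, against 28.9%, 23.4% and 27.1%. With IGF1 both shares were thus close to those of all genes, and the values of single genes are given as such. Their median log2 fold changes were 0.08, -0.10 and 0.32. The phosphatase genes Dusp10 and Dusp3 rose by log2 0.67 and 1.13 with phenylephrine (edgeR adjusted p = 8.1e-06 and 1.0e-05). With IGF1, Dusp10 was 1.36-fold lower and Dusp3 was 1.28-fold higher (log2 -0.45 and 0.36, edgeR adjusted p = 5.8e-04 and 0.014). Without IGF1 replicate 1 these changes were log2 -0.53 and 0.21 (edgeR adjusted p = 5.6e-07 and 1.2e-06). Dusp2, a nuclear ERK phosphatase of immune cells, rose 5.06-fold with phenylephrine at a low level, with 1.71 ± 0.08 CPM against 0.329 ± 0.15 CPM with vehicle (SD, n = 3; edgeR adjusted p = 1.3e-04). Errfi1, an inhibitor of the EGF receptor, and Dusp16 rose 1.40-fold and 1.44-fold with phenylephrine (edgeR adjusted p = 2.3e-04 and 0.0014). Spred2, the relative of Spred1, was 1.39-fold lower with IGF1 (adjusted p = 8.9e-04). It stood at 13.4 ± 0.92 CPM with phenylephrine and 13.6 ± 1.61 CPM with vehicle (SD, n = 3), a log2 difference of -0.02 (SE 0.10, edgeR adjusted p = 0.86).

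The largest change against vehicle in that list was that of Ptprr, a tyrosine phosphatase that binds and inactivates ERK. It stood at 2.25 ± 0.46 CPM with phenylephrine, 3.80 ± 0.52 CPM with IGF1 and 12.2 ± 0.50 CPM with vehicle (SD, n = 3), a fall of 5.39-fold with phenylephrine and of 3.22-fold with IGF1 (edgeR adjusted p = 4.7e-09 and 1.1e-07). Ptprr was thus lower with both stimuli, as was Spred1. Without IGF1 replicate 1 the counts of this list were 8 higher and 3 lower, 4 higher and 5 lower, and 8 higher and 5 lower in the 3 comparisons. Of all genes, 31.2% and 32.2%, 27.4% and 26.6%, and 30.4% and 30.2% were then higher and lower.

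The early response and transcription genes that lie downstream of ERK were mostly higher with phenylephrine and lower with IGF1. Of 21 genes, all tested, 15 were higher and 2 lower with phenylephrine, and 1 was higher and 12 lower with IGF1. The share higher with phenylephrine was 71.4%, against 27.9% of all genes, and the share lower with IGF1 was 57.1%, against 23.4% of all genes. With phenylephrine against IGF1, 20 were higher and 1 (Elk1) lower, against 27.1% of all genes in each direction. Their median log2 fold changes were 0.65, -0.37 and 1.06. The AP-1 subunit genes Fosb and Fosl1 rose 3.82-fold and 3.06-fold with phenylephrine (edgeR adjusted p = 1.2e-05 and 1.8e-06), while Fosl2, of the same family, was 1.40-fold lower (adjusted p = 0.0044). With IGF1, the largest falls were those of Egr3 at 2.21-fold and the growth regulator Myc at 2.20-fold (edgeR adjusted p = 0.043 and 1.5e-05). Egr3 rested on few reads, 8 to 41 per library, with means of 0.254 CPM with IGF1 and 0.567 CPM with vehicle. Without IGF1 replicate 1 the falls were log2 -1.17 for Egr3 and -1.31 for Myc. The Egr3 call ended without any 1 of vehicle replicates 1 and 2, phenylephrine replicate 1 and IGF1 replicates 2 and 3 (log2 -1.15 to -0.99, adjusted p = 0.057 to 0.14), with limma-voom (0.067) and with replicate number as a block (0.054). Myc and the AP-1 gene Fos had the largest differences between the stimuli, at 4.58-fold and 3.96-fold higher with phenylephrine than with IGF1 (edgeR adjusted p = 3.6e-08 and 2.4e-11). Without IGF1 replicate 1, 16 of the 21 genes were higher and 2 lower with phenylephrine against vehicle. With IGF1 against vehicle 1 was then higher and 17 lower, and with phenylephrine against IGF1 19 were higher and 1 lower. Of all genes, 31.2% and 32.2%, 27.4% and 26.6%, and 30.4% and 30.2% were higher and lower in these comparisons.

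**Figure D4:**
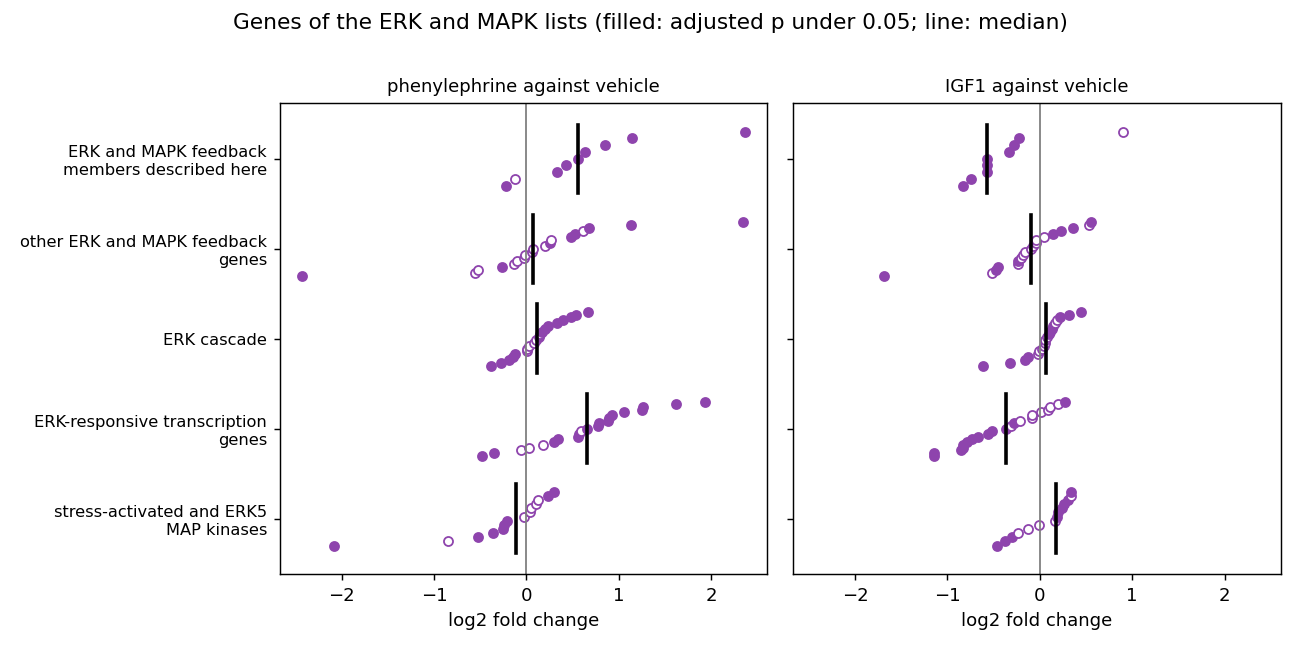
Log2 fold changes against vehicle of the genes of 5 lists, 1 point a gene, filled where the adjusted p was under 0.05, with a line at each list's median. The members and the ERK-responsive transcription genes lie to the right with phenylephrine (medians 0.56 and 0.65) and to the left with IGF1 (-0.57 and -0.37), while the genes of the cascade lie on both sides of 0 (medians 0.12 and 0.07).

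Calls among the kinases and adaptors of the cascade itself also went both ways. Of 20 tested, 9 were higher and 5 lower with phenylephrine, 7 were higher and 4 lower with IGF1, and 8 were higher and 4 lower with phenylephrine against IGF1, with medians of 0.12, 0.07 and 0.05. The shares higher were 45%, 35% and 40%, against 27.9%, 24.7% and 27.1% of all genes. The shares lower were 25%, 20% and 20%, against 28.9%, 23.4% and 27.1% of all genes. Map2k1, which encodes a MEK kinase, rose 1.45-fold with phenylephrine (edgeR adjusted p = 3.0e-07). Mapk3, which encodes one of the ERK kinases, was 1.53-fold lower with IGF1 (adjusted p = 9.4e-09), and the adaptor gene Grb2 was 1.36-fold higher (adjusted p = 2.1e-06). The counts without IGF1 replicate 1 were 12 and 5, 8 and 3, and 10 and 4. The shares of all genes were then 31.2% and 32.2%, 27.4% and 26.6%, and 30.4% and 30.2%.

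Dusp1 and Dusp8 act on JNK and p38, the kinases of the stress-activated branches. Of 14 tested genes of those branches and of the ERK5 branch, 2 were higher and 6 lower with phenylephrine, 6 were higher and 3 lower with IGF1, and 1 was higher and 6 lower with phenylephrine against IGF1, with medians of -0.12, 0.18 and -0.18. The shares lower were 42.9%, 21.4% and 42.9%, against 28.9%, 23.4% and 27.1% of all genes. The shares higher were 14.3%, 42.9% and 7.14%, against 27.9%, 24.7% and 27.1% of all genes. Map2k6, which encodes a p38-activating kinase, stood at 1.71 ± 0.41 CPM with phenylephrine and 7.23 ± 0.80 CPM with vehicle (SD, n = 3), 4.23-fold lower (edgeR adjusted p = 2.8e-07). Mapk14, which encodes p38 alpha, was 1.43-fold lower with phenylephrine than with IGF1 (edgeR adjusted p = 3.9e-08). Without IGF1 replicate 1 the counts were 3 and 6, 7 and 3, and 2 and 6. All genes then had shares of 31.2% and 32.2%, 27.4% and 26.6%, and 30.4% and 30.2%.

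Genes with the profiles nearest to those of 3 members were sought among 9300 others with a mean of at least 5 CPM, as the smallest root mean square difference in log2 level after centring over the 9 libraries. For Dusp6, whose own levels spanned 1.68 on that scale, they were Camta1, Vsig10, Ppp1r15a and St3gal6 (0.079 to 0.105). For Spry4, which spanned 1.02, they were Chpf2, Tmem43, Spry2 and Ajuba (0.043 to 0.070). For Dusp1, which spanned 1.43, they were Grem1, Cited2, Zswim4 and Sdc4 (0.086 to 0.104). When IGF1 replicate 1 was left out, the nearest 4 again held 2 of these genes for Dusp6, 2 for Spry4 and 3 for Dusp1. Dusp8 was looked at after its values were seen: Enah, which encodes an actin regulator, was nearest both with all 9 libraries (0.045, where Dusp8 spanned 2.54) and without IGF1 replicate 1 (0.047).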

How the data were processed

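Libraries were prepared with the NuGEN Ovation kit for sequencing on an Illumina NovaSeq, per the labels' protocols. The authors deposited unnormalized read counts by gene symbol, with a column for each sample. STAR, HTSeq, DESeq and the rn5 build are named in the submitters' processing notes, with no role or version; nothing there or in the labels tells if strand was used, so reads of overlapping or antisense genes cannot be told apart.

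Genes were kept by filterByExpr (minimum count 10, minimum total 15), scaled by TMM and fitted in edgeR 4.0.16 (R 4.3.3) with robust quasi-likelihood dispersions and group as the only term, using all 9 samples. P-values were adjusted by Benjamini-Hochberg over all 11873 genes, with a threshold of 0.05. An SE is the absolute log2 fold change over the square root of F. The alternatives were DESeq2 1.42.0, limma-voom (limma 3.58.1), other scalings, filters and samples, and a replicate block. The list counts without IGF1 replicate 1 were added after seeing the data. Members, lists, marker lists and naming rules (up to 2 rises and 2 falls a list, any tested feedback gene, the 4 nearest profiles) were chosen with earlier results of these data known. The planned protein features were not analysed here, and a further marker list is not reported here.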

Additional observations from a re-analysis of the deposited data

How the results depend on the processing

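No log2 fold change of a member changed sign under any of the alternatives run. Of 459 values for the 9 members, 441 kept their side of the threshold, 9 lost it and 9 gained it. For the 36 other genes that the naming rule picks, 955 of 999 kept it and 44 lost it. With scaling by library size only, all genes higher and lower with phenylephrine against vehicle were 1751 and 5696, all genes higher with phenylephrine against IGF1 were 2132, and members lower with phenylephrine against vehicle were 2. That last count was also 2 with the stricter filter (5 CPM in 3 samples) and when the 2 groups were fitted alone, and ran from 0 to 2 when each sample was left out in turn. All genes lower in these settings were 3181, 3717 and 3075 to 3875. Members higher with IGF1 against vehicle were 1 with DESeq2 and 0 to 1 when each sample was left out. All genes higher in that comparison were 3034 with DESeq2 and 2394 to 3292 when each sample was left out. The cause of these changes was not tested.

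With the replicate number as a block, the members higher and lower were 7 and 1 with phenylephrine against vehicle, 0 and 8 with IGF1 against vehicle, and 9 and 0 with phenylephrine against IGF1. All genes were then 3253 and 3395, 2871 and 2723, and 3167 and 3145. The labels do not say that the numbers mark pairs, so they were not taken as such. Correlations of the deviations of same-numbered samples ran from -0.23 to 0.09. They cannot decide on pairing, since deviations were taken from means of 3 libraries and IGF1 replicate 1 stood apart. Each member rested on 343 reads or more per library, and 3 samples a group measure the spread between libraries only roughly.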
